A study of Mus musculus with 16 samples.

Results

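Promoter contacts under 25 kb were taken from Promoter Capture Hi-C (P-CHi-C) of mouse liver. P-CHi-C ligates HindIII fragments that lie close together in the nucleus and then pulls down, with RNA probes, the ligation products that carry a promoter fragment, called the bait. A contact was a member when both fragments lay on one chromosome, exactly 1 of them was a bait in any list, and the midpoints of the fragments were below 25 kb apart. By this rule 13707 of the 247177 distinct fragment pairs were members, out of 208959 pairs that joined a promoter to a non-promoter fragment on one chromosome. They belonged to 5876 of 18165 baits and to 12347 different other ends. None of these choices used a score or a timepoint.

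The livers were those of wild type male C57BL/6 mice with free access to food. The study describes mice 8 weeks of age that were then kept for 2 weeks on a cycle of 12 h light and 12 h dark. Whole liver was collected at ZT0 (lights on), ZT6, ZT12 (lights off) and ZT18, so the lists average hepatocytes with the other cells of the tissue, and no genetic or drug manipulation was involved. Each timepoint had 3 pools, each made from 2 livers, and because 2 lanes were run for pool A the series holds 16 samples. The authors merged the pools of a timepoint before they called contacts, so each timepoint is 1 list with 1 score per pair, no spread between animals is available, and no difference between timepoints was tested. The Wilson 95% intervals below cover counting error only, and contacts of one bait are not independent of each other. Timepoints follow the sample labels. In number of pairs, the lists labelled ZT6, ZT12 and ZT18 match what a summary of the study gives for ZT18, ZT6 and ZT12, so every statement on these timepoints rests on the labels, and the numbers per timepoint and the circadian comparison are given in both orders.

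Fragments a few kilobases apart meet often because the chromatin fibre itself holds them close. CHiCAGO, the caller used here, compares the reads of a pair with the number expected at that distance and for that bait, and gives a score made from a weighted p-value, of which the lists hold pairs of 5 and over. A short-range contact above that expectation can join a promoter to an enhancer just outside the gene, to an intron or to the end of the gene it serves. In liver, the circadian clock acts through short DNA words close to its target genes: the E-box, bound by CLOCK and BMAL1, the D-box, bound by DBP, TEF and HLF, and the ROR element, bound by ROR and REV-ERB proteins.

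The stretches below show other ends of members of clock and metabolic genes that are described further on. For each motif shown, the member of that gene with the highest score that holds it was taken, and the genes and motifs were chosen after the scores were seen. Letters are from the + strand of mouse build mm9, and the capitals mark the motif on either strand, or for Alas1 what the enzyme leaves of its HindIII site.
Bhlhe40, E-box in chr6:108618079-108618199: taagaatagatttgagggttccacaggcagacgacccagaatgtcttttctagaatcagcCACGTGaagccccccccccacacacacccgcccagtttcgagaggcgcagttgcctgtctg
Bhlhe40, D-box in chr6:108621495-108621615: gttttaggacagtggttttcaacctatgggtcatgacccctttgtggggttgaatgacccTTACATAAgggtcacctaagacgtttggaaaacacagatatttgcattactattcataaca
Hlf, E-box in chr11:90231111-90231231: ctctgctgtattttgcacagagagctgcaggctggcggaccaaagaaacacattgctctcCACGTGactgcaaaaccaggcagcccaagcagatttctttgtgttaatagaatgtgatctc
Per1, E-box in chr11:68927242-68927324: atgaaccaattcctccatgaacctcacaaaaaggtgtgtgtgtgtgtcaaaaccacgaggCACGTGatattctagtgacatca
Per2, ROR element core in chr1:93338810-93339059: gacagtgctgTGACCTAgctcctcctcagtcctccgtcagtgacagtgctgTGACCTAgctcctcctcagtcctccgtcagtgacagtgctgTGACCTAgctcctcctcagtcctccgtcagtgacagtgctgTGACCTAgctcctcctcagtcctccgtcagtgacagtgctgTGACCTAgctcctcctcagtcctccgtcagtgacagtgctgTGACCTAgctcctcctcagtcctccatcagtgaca
Pck1, E-box in chr2:172969843-172969963: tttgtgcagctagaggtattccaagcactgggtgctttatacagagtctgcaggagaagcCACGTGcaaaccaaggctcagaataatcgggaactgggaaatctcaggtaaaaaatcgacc
Ugt1a1, E-box in chr1:90121391-90121511: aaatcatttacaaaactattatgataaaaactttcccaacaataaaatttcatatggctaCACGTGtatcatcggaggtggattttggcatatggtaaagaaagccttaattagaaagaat
Alas1, a whole fragment, chr9:106168379-106168608: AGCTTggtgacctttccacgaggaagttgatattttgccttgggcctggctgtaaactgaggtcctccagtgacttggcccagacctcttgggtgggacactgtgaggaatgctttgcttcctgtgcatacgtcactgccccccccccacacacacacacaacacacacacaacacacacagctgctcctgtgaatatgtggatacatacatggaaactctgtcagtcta

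The Bhlhe40 stretches lie 7.52 and 10.9 kb after the start of the gene, past its end, where no gene is annotated. The Hlf and Per2 stretches lie in introns of these same genes, 21.1 and 17.1 kb after their starts. The printed 250 bp of the Per2 intron is a tandem repeat whose unit of 41 bp recurs almost letter for letter. The ROR element core stood once in each unit, so its 6 matches are copies of 1 word, and their number depends on the length printed. The Pck1 and Alas1 stretches lie upstream, 8.65 and 18 kb before the gene start, and those of Per1 and Ugt1a1 18.6 and 12.9 kb after it, all 4 outside annotated genes. None of the stretches overlaps an annotated exon. These matches are strings of letters and were not tested as binding sites.

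Members made up 6.22% (6.10 to 6.35%, 9104 of 146262) of the ZT0 list and 6.01% (5.90 to 6.13%, 9308 of 154775) of the ZT6 list. In the ZT12 list the share was 6.46% (6.34 to 6.59%, 9791 of 151529), and in the ZT18 list it was 6.79% (6.66 to 6.91%, 10269 of 151347). In the order of the study's summary the ZT6, ZT12 and ZT18 numbers would be 9791, 10269 and 9308. The ZT18 list held 1.13 times as many short contacts as the ZT0 list. Contacts of 25 to 50 kb showed a ratio of 1.17, while the ratio was 0.981 at 200 to 500 kb and 0.946 at 500 to 1000 kb. The ZT6 list went the other way, with ratios to ZT0 of 1.02 under 25 kb and 1.14 at 500 to 1000 kb. When each list was cut to an equal number of its highest scores, the ZT0, ZT6, ZT12 and ZT18 lists held 9104, 8705, 9402 and 9887 members. The read depth of the lists was not analysed here, and its part in these counts was not tested.

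**Figure D1:**
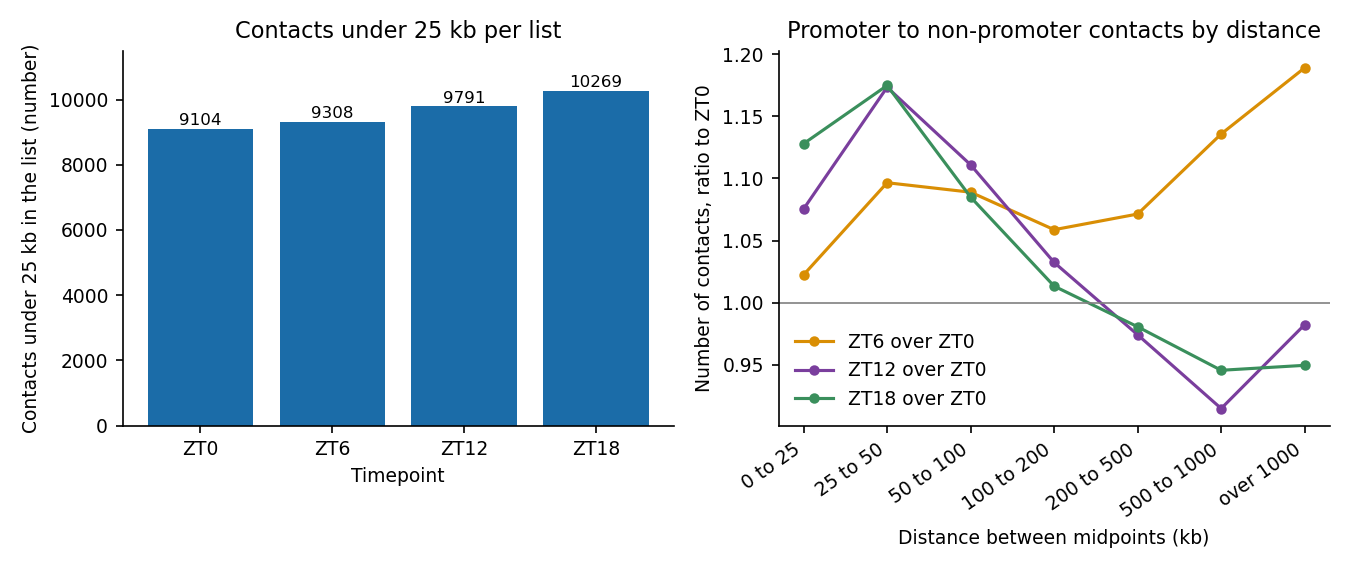
Number of contacts under 25 kb in each list (left), and the number of promoter to non-promoter contacts at ZT6, ZT12 and ZT18 divided by that at ZT0 in classes of midpoint distance in kb (right). The bars rise from 9104 at ZT0 to 10269 at ZT18, and the ZT18 ratio is 1.13 under 25 kb, 1.17 at 25 to 50 kb and 0.946 at 500 to 1000 kb, while the ZT6 ratio is 1.02 under 25 kb and 1.14 at 500 to 1000 kb.

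Scores of members had nearly the same distribution at every timepoint. Median scores ran from 6.56 at ZT0 to 6.64 at ZT18, with upper quartiles between 8.36 and 8.57. Across the members shared by 2 lists, Spearman's rank correlation between scores was 0.721 to 0.781, highest between ZT12 and ZT18 (8146 shared members) and lowest between ZT0 and ZT12 (7292), and it describes members whose bait and background are the same in both lists. Of the 7482 members shared by ZT0 and ZT18, 58.8% scored higher at ZT18 than at ZT0, and the median difference in score was 0.27. Among the 6155 members listed at all 4 timepoints, the highest of the scores fell at ZT18 in 31.9% (30.7 to 33.1%), at ZT12 in 24.8%, at ZT0 in 22.4% and at ZT6 in 20.9%.

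Short contacts were listed repeatedly. Of the members, 44.9% (44.1 to 45.7%, 6155 of 13707) were in all 4 lists, beside 31.7% of all promoter to non-promoter pairs on one chromosome and 32.5% of all distinct pairs. The same share was 39.0% (38.2 to 39.8%) at 25 to 50 kb and 16.3% (14.9 to 17.8%) over 1 Mb, but 56.3% (54.98 to 57.55%) in contacts under 50 kb that joined 2 promoters. Only 24.5% (23.8 to 25.2%) of the members were in 1 list, beside 35.9% of all promoter to non-promoter pairs. Members alone in 1 list lay close to the score minimum, with median scores of 5.36 or 5.37 in each of the lists. When an other end on the adjoining fragment of the same bait was taken as the same contact, 58.8% of the members were present at all 4 timepoints and 15.6% at 1.

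Below a score of 15, the difference from longer contacts remained in pairs of like score. Among pairs whose highest score was 7 to 8, 64.2% (62.0 to 66.3%) of the members were in all 4 lists, against 42.1% (39.8 to 44.4%) at 25 to 50 kb and 23.7% (23.1 to 24.2%) at 50 to 500 kb. At a highest score of 10 to 15 the shares were 97.5%, 95.9% and 86.5%, and at 15 and over they were 99.2%, 98.9% and 99.4%. Members reached a score of 10 less often than promoter to non-promoter pairs as a whole, 16.4% against 20.3%, and 18.3% of contacts of 25 to 50 kb did so.

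**Figure D2:**
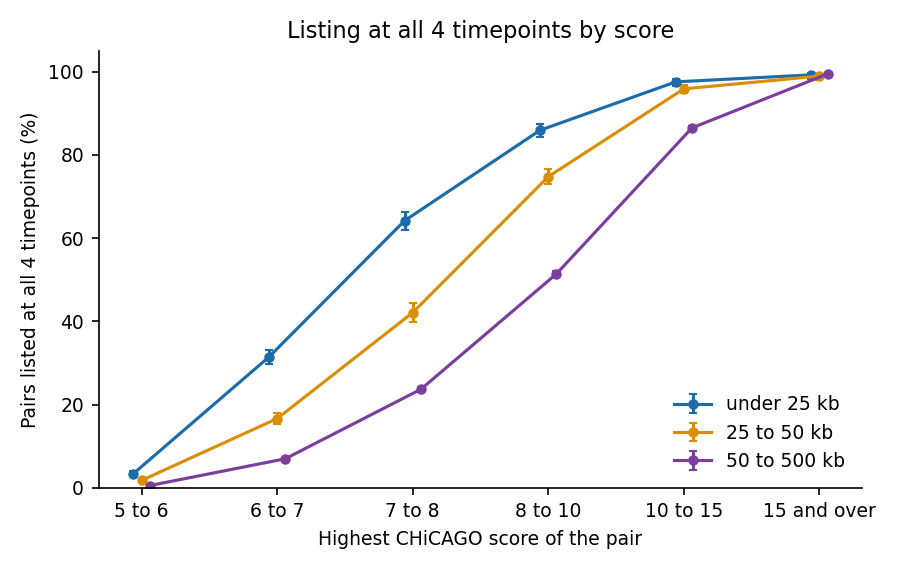
Share of pairs found in all 4 lists (%) by the highest CHiCAGO score of the pair, for contacts under 25 kb, of 25 to 50 kb and of 50 to 500 kb, with Wilson 95% intervals as bars. In the class of 7 to 8 the shares are 64.2%, 42.1% and 23.7%, and at a score of 15 and over they are 99.2%, 98.9% and 99.4%.

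Of the 2094 members listed at exactly 2 timepoints, the most frequent pair of lists was ZT12 and ZT18, which in the other order would be ZT6 and ZT12. There were 681 members (4.97%, 4.62 to 5.34%) listed at ZT12 and ZT18 alone and 284 (2.07%, 1.85 to 2.32%) at ZT0 and ZT6 alone. Over all promoter to non-promoter pairs these patterns made up 3.43% and 3.17%. Members in every list but ZT0 numbered 735, and those in every list but ZT18 339. Listings at 1 timepoint were 776, 733, 807 and 1039 for ZT0, ZT6, ZT12 and ZT18.

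To describe where short contacts lie, each bait was paired with every never-bait fragment with its midpoint under 25 kb away that did not adjoin the bait, since the lists hold no adjoining fragments. Of these 190100 eligible pairs, 7.21% (13707) were listed at some timepoint. The share was 0.379% under 2.5 kb and 3.28% at 2.5 to 5 kb, reached 10.8% (10.4 to 11.2%) at 7.5 to 10 kb, and declined to 4.66% (4.39 to 4.93%) in the last 2.5 kb below the limit. The median distance of members was 12.9 kb, with quartiles of 9.28 and 17.9 kb and a smallest distance of 1.80 kb. At the limit itself, the pairs just inside were a contact of Siglec5 at 24.996 kb (score 5.45, ZT18 alone) and one of Rhog (scores of 8.21, 7.77, 6.65 and 8.43), and just outside were contacts of Tram2 (6.46, 5.66 and 5.97 at ZT6, ZT12 and ZT18) and Atoh8 (6.60 at ZT0). The numbers of pairs on either side of the limit were alike, with 1105 in the last 2.5 kb below it and 1187 in the first 2.5 kb above it.

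Listing rose steeply with the length of the bait fragment. Eligible pairs were listed in 3.39% (2.96 to 3.88%) where the bait was under 1 kb and in 23.8% (22.8 to 24.8%) where it was 16 kb and over. With midpoints held at 10 to 15 kb apart, the shares were 4.06% (3.12 to 5.27%) and 33.7% (31.4 to 36.0%). Long baits leave a small gap at a given midpoint distance: the median gap between the facing ends was 6108 bp in members and 10242 bp in unlisted eligible pairs, and 27.4% of the members had a single fragment between bait and other end. The length of the other end made less difference, from 6.48% under 1 kb to 7.88% at 8 to 16 kb, with 13.3% (11.1 to 15.9%) in the 780 pairs of 16 kb and over. Members on baits under 8 kb were in all 4 lists in 40.8% (39.7 to 42.0%).

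**Figure D3:**
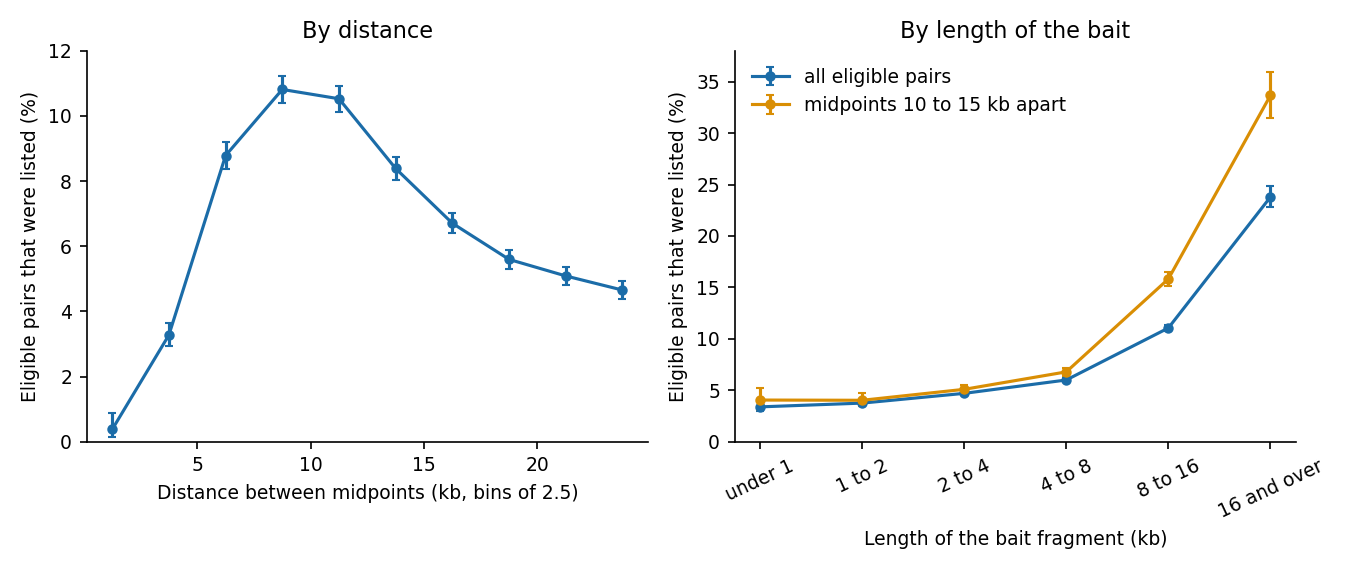
Share of eligible pairs that were listed at any timepoint (%) by midpoint distance in bins of 2.5 kb (left) and by the length of the bait fragment in kb (right), with Wilson 95% intervals as bars. The share peaks at 10.8% at 7.5 to 10 kb, and it rises with bait length from 3.39% to 23.8% over all eligible pairs and from 4.06% to 33.7% at 10 to 15 kb.

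Neighbouring fragments tended to be listed with the same bait: 8065 members (58.8%) had a member of that bait on an adjoining fragment. Of the 3125 baits with 2 or more members, 1040 (33.3%) had members on both sides. Listing also moved with base composition, from 2.71% (2.38 to 3.10%) of eligible pairs whose other end had under 35% GC to 12.3% (11.9 to 12.8%) at 50 to 55%. Many other ends served more than 1 promoter: 63.1% of the 12347 were listed with another bait at some distance, beside 68.4% of the other ends of contacts of 25 to 50 kb, and 1197 (9.69%) had 2 or more baits within 25 kb.

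Fragments inside the gene of the bait or past its end were listed more often than upstream fragments. On 13735 baits with starts of protein-coding genes on 1 strand alone, 6.72% (6.54 to 6.91%) of the upstream fragments were listed, against 8.22% (7.96 to 8.48%) inside the gene and 7.94% (7.64 to 8.26%) past its end. At 10 to 15 kb the shares were 8.72% (8.31 to 9.15%), 10.8% (10.3 to 11.4%) and 10.8% (10.1 to 11.6%). The order held for baits of 2 to 4 kb, at 4.36%, 5.45% and 5.66%, but not for baits under 1 kb, at 3.88% (3.15 to 4.78%), 3.38% (2.55 to 4.46%) and 4.51% (3.34 to 6.06%), whose intervals overlap, nor for baits of 1 to 2 kb, at 3.87%, 3.74% and 4.38%. Because upstream fragments were more numerous, they still made up 44.9% of the 10651 members on these baits, with 33.4% inside and 21.7% past the end.

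The fragment that holds the end of the gene was listed more often than the rest of the gene. Where the end of the gene fell on an eligible fragment, 12.2% (11.2 to 13.2%, 458 of 3766) of these were listed, against 7.91% (7.65 to 8.17%) of the fragments inside the gene without its end. At 5 to 10 kb the shares were 15.8% (13.6 to 18.3%) and 9.93% (9.36 to 10.5%). By annotation, 10.1% (9.13 to 11.1%) of fragments with a gene start that was not captured were listed, 9.27% (9.03 to 9.51%) of those with an exon, 6.83% (6.62 to 7.05%) of those with intron alone and 5.84% (5.68 to 6.01%) of those with no gene. GC content differs between these classes and its part was not tested.

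**Figure D4:**
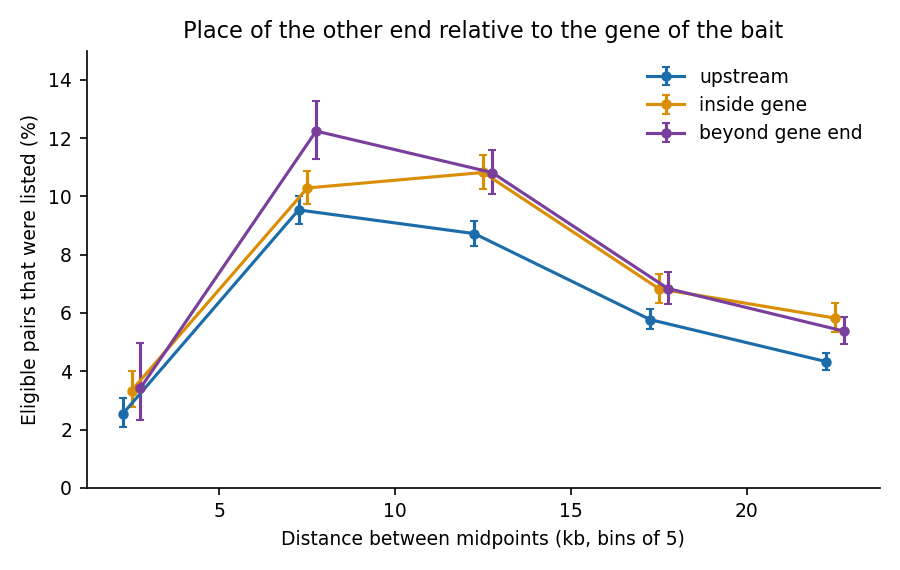
Share of eligible pairs that were listed (%) by midpoint distance in bins of 5 kb, for other ends upstream of the gene, inside it and beyond its end, with Wilson 95% intervals as bars. From 10 kb on the upstream line lies below the others, for example 8.72% against 10.8% and 10.8% at 10 to 15 kb.

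The motif words described the same fragments only weakly. In central windows of 1 kb, CACGTG (E-box) was present in 12.8% (12.1 to 13.5%) of 9402 member other ends and 11.2% (11.05 to 11.44%) of 99630 eligible but unlisted ones. TTATGTAA (D-box) was present in 3.78% and 4.79%, TAGGTCA (ROR element core) in 9.66% and 9.54%, TGTTTAC (FOXA, a pioneer factor of liver) in 12.4% and 13.6%, and GTTAATNAT (HNF1) in 2.29% and 2.93%. TCAAGGTCA, read by the nuclear receptor NR5A2 and overlapping the ROR word in part, was present in 3.44% (3.09 to 3.82%) and 2.71% (2.61 to 2.81%), and CAAAGTCCA (HNF4A) in 1.51% and 1.48%. AGGGGGCGC, the core of the CTCF site, was present in 44 member windows (0.468%, 0.349 to 0.628%) and in 0.214% (0.187 to 0.244%) of the unlisted ones, and TTGCGCAA (C/EBP) in 0.160% and 0.0964%. Within windows of over 50% GC the E-box stood at 16.3% in members and 16.6% in unlisted fragments, and the CTCF core at 1.33% and 0.795%. Both strands were searched.

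Many of the strongest members belonged to long baits with a short gap, but not all. The highest scores of all belonged to a bait of 24.994 kb on chromosome 15 with the start of a U6 small nuclear RNA gene, whose contacts over 15.2 and 14.4 kb scored 69.5 and 66.4 at ZT6 and between 32.1 and 34.3 at each other timepoint. Among baits with a protein-coding gene the first was Hpn, the gene of the liver serine protease hepsin, with scores of 33.9, 40.6, 41.5 and 41.7 at ZT0, ZT6, ZT12 and ZT18, from a bait of 24161 bp with a gap of 713 bp. Gramd1a, in the same stretch of chromosome 7, had a contact with a mean score of 30.3. Contacts with wider gaps were those of Iah1, at 33.5, 40.3, 35.6 and 36.9 across a gap of 18733 bp, of Spdya, at 30.1, 33.4, 30.9 and 38.9 across 17985 bp, and of Dtd1, at 29.3, 29.1, 35.1 and 34.9 across 14887 bp. S100a14 reached 31.1, 33.2, 31.3 and 28.4 from a bait of 1643 bp. Sgk2, Zbtb7a, Mapk11 with Mapk12, Chd8 and the imprinted gene Peg3 complete this group, with mean scores between 30.2 and 35.6.

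Baits differed widely in their number of short contacts. Of the 5876 baits with a member, 2751 (46.8%) had 1 and 64 (1.09%) had 10 or more. Baits with more short contacts also had more long ones: the median number of promoter to non-promoter contacts beyond 25 kb was 3 for baits with no member, 5 with 1, 10 with 2 to 4 and 27 with 5 or more. Arhgef40, which codes for a guanine nucleotide exchange factor, had the most, 17 of its 18 eligible fragments, 14 of them in all 4 lists. Gcgr, the glucagon receptor gene, had all 16 of its eligible fragments from a bait of 17057 bp, 12 of them in all 4 lists, with scores up to 17.6. Next to it, the bait of Dysfip1 and Fam195b had 14. Gatad2b, a subunit gene of the NuRD chromatin complex, had 16, of which 16, 10, 7 and 12 were listed at ZT0, ZT6, ZT12 and ZT18. Nid2, N28178, Nnt, Ywhaq, Fam65b and Vps13d followed with 13 to 15.

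Genes of secreted plasma proteins often had short contacts. A member was found for 17 of 23 baits of that list (73.9%, 53.5 to 87.5%), beside 33.6% of the 15107 baits with a protein-coding gene start. The baits are not all separate loci, since the fibrinogen genes, Alb with Afp, and Itih1 with Itih3 are neighbours. Ttr, which codes for the thyroid hormone and retinol carrier transthyretin, had 12 members and all of them were in every list, with scores from 5.36 to 22.3. Its strongest contact, 18.8 kb from the bait, scored 12.7, 16.8, 15.9 and 22.3, so it was lowest at ZT0 and highest at ZT18. Fga, the fibrinogen alpha chain, had 10 members, and 3 fragments side by side at about 20.5 to 22.3 kb from its bait scored between 10.6 and 17.5 at every timepoint. Hpx, the heme carrier hemopexin, had 8 and Alb, albumin, 5, while Rbp4, Plg, F9, Ambp, Orm1 and Vtn had none.

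Genes of bile acid, amino acid and other liver functions followed with wide intervals. Bile acid genes had a member on 9 of 13 baits (69.2%, 42.4 to 87.3%) and amino acid and urea genes on 10 of 17 (58.8%, 36.0 to 78.4%). Cyp7a1, the rate-limiting enzyme of bile acid synthesis, had 6 members from a bait of 877 bp, and the one over 12.7 kb scored 9.10, 9.88, 13.01 and 16.3 at ZT0, ZT6, ZT12 and ZT18. Cps1, the first enzyme of the urea cycle, had 7, of which the contact over 20.6 kb scored 12.5, 10.4, 13.4 and 14.2. Both strongest contacts were higher at ZT18 than at ZT0.

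Further lists were apolipoproteins at 8 of 14 baits, hepatocyte transcription factors at 11 of 20, clock output regulators at 5 of 9, heat shock genes at 7 of 13, housekeeping genes at 7 of 14, lipid and cholesterol synthesis at 10 of 21, core clock at 5 of 11, glucose metabolism at 6 of 17, fatty acid oxidation at 5 of 15 and drug metabolism at 5 of 15. The interval of the transcription factors, 34.2 to 74.2%, lay just above the share over protein-coding baits, and those of the other 9 lists included it. The transcription factor baits were longer, with a median of 7639 bp against 5973 bp over baits of protein-coding genes, and the part of bait length was not tested. In the transcription factor list, Ppara, the fatty acid sensor, had 4 members, and 3 of them were listed only at ZT12, ZT18 or both. The same list had 17, 13, 20 and 25 listings at ZT0, ZT6, ZT12 and ZT18. Scd1, a fatty acid desaturase, had 6 members with a best score of 12.6, and Elovl5, a fatty acid elongase, had 9. Gapdh, a housekeeping gene, had 6, of which 2 were in every list.

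As a check on the tissue, none of the 3 baits of neuronal genes had a member, which with so few baits allows a share of up to 56.1%. Other cell types of liver had members at 4 of 8 endothelial, 2 of 6 macrophage, 1 of 4 stellate, 3 of 5 bile duct and 3 of 7 lymphocyte marker baits. Among the defining markers, Stab2, Clec4f and Ptprc had 0, while Oit3 of endothelial cells had 5 from a bait of 24536 bp. Listings of the bile duct marker baits numbered 1, 0, 3 and 5 at ZT0, ZT6, ZT12 and ZT18. A contact is not a measure of expression, and the part of other cell types in the results was not tested.

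Summed over the core clock list and over the output list, most short contacts were listed at ZT12, but few baits carried these sums. Over the 5 core clock baits with members there were 13 contacts, of which 7, 7, 12 and 9 were listed at ZT0, ZT6, ZT12 and ZT18, and over the 5 baits of output regulators there were 21, with 8, 15, 19 and 17. Per2 had 6 and Per1 3 of the core contacts, and Bhlhe40 had 10 and Hlf 7 of the output contacts. Nr1d2 and Nfil3 had none at ZT12, Hlf had most at ZT18, and Per3 and Tef had the same number in every list. Over all members the shares listed were 66.4%, 67.9%, 71.4% and 74.9%. Arntl, Clock, Cry1, Cry2, Nr1d1 and Dbp had baits but no member.

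Bhlhe40, a repressor that competes for E-boxes and reads out the clock, had 10 members from a bait of 2994 bp. All 10 were listed at ZT12, beside 4 at ZT0, 6 at ZT6 and 7 at ZT18. The fragment that carries the E-box printed first, 7.74 kb from the bait, scored 5.54, 8.32, 15.7 and 8.46, and so peaked at ZT12. Its neighbour at 6.54 kb was not listed at ZT0 and scored 8.60, 12.7 and 6.77 afterwards. The fragment with the D-box, at 12.8 kb, and the one before it were listed at ZT12 alone, with 8.70 and 8.69. By contrast, the farthest member, at 23.1 kb, scored 9.43, 8.67, 10.1 and 8.34, all within a narrow range.

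Hlf, an activator that binds D-boxes, had 7 members, of which 2 were listed at ZT0 and 5, 6 and 7 were listed at ZT6, ZT12 and ZT18. Its strongest contact, inside the gene at 21.04 kb, scored 12.4, 17.0, 19.1 and 14.96. The adjoining fragment with the E-box shown above was absent at ZT0 and scored 6.60, 11.1 and 7.08. Tef, of the same family, had 2 members from a bait of 23894 bp, and the nearer scored 28.2, 35.3, 29.1 and 26.0, which was highest at ZT6.

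Among the period genes, which repress CLOCK and BMAL1, Per2 had 6 members, and each scored highest at ZT12. Its intronic fragment with the tandem repeat was listed there alone, at 6.46, and the fragment at 22.9 kb scored 5.57, 8.24, 8.41 and 6.79. Per1 had 3, of which the fragment with the E-box scored 6.03, 6.47, 7.16 and 6.20. Per3 had 1, with scores of 5.20, 5.58, 6.01 and 5.73. Several of these scores lie close to the minimum of 5.

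Wee1, a kinase that restrains entry into mitosis, had 1 member at 5.31, 6.52 and 6.88 from ZT6 on. Nr1d2, a REV-ERB repressor, had 1 at 5.33 and 5.22 at ZT0 and ZT6, and Nfil3, a repressor at D-boxes, had 1 at ZT6 with 5.02.

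**Figure D5:**
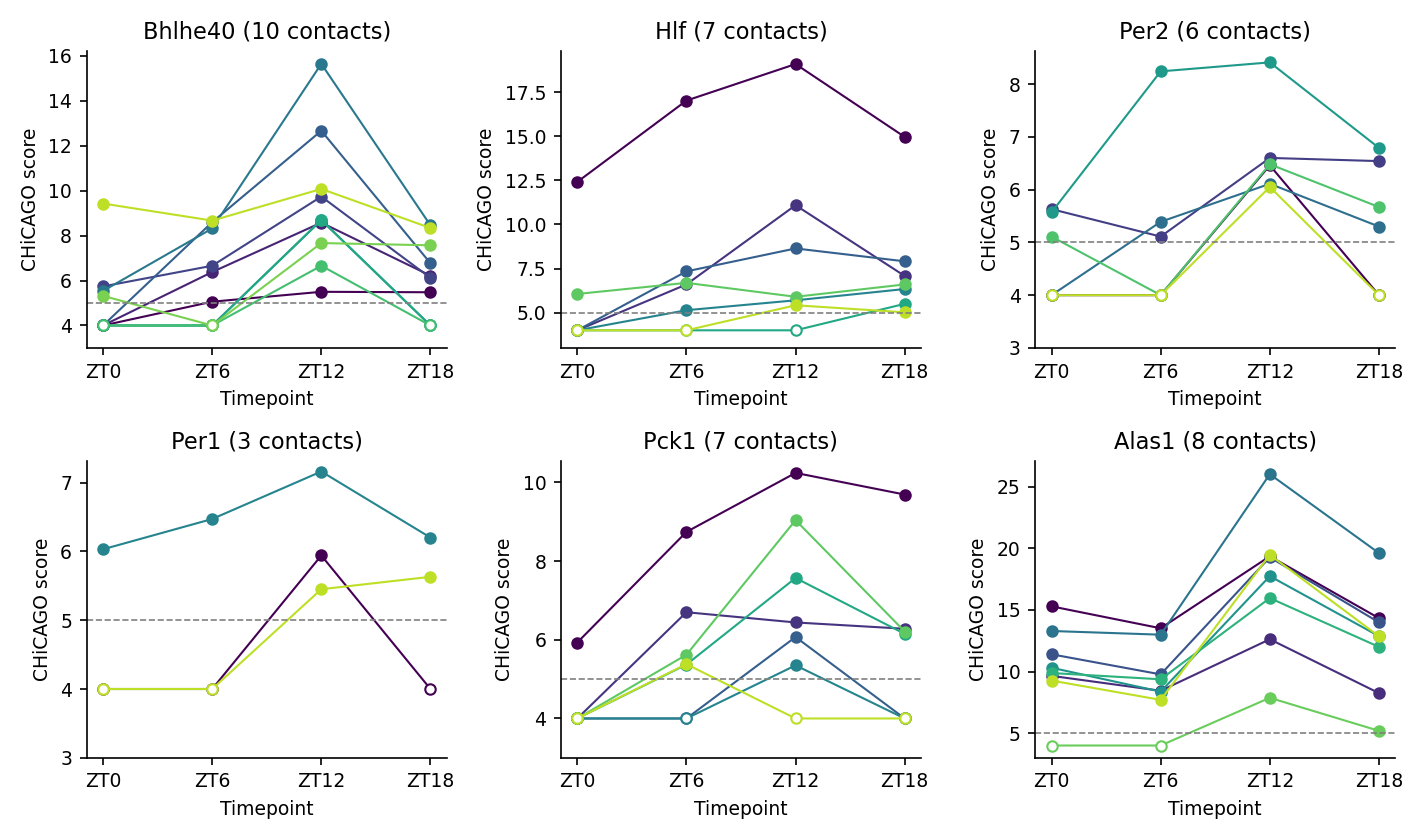
CHiCAGO scores of every contact under 25 kb of Bhlhe40, Hlf, Per2, Per1, Pck1 and Alas1 at ZT0, ZT6, ZT12 and ZT18, with 1 line per contact. Filled circles are scores, open circles drawn below the dashed line at 5 mark timepoints where the contact was not listed and have no value. Most lines peak at ZT12, with 15.7 for Bhlhe40, 19.1 for Hlf and 26.0 for Alas1. The genes drawn were chosen after the scores were seen. Bhlhe40 and Pck1 rank high by gain at acrophase ZT12 and Alas1 by its shared peak, so their peaks follow in part from the choice. Over all members in all 4 lists, 24.8% scored highest at ZT12 and 31.9% at ZT18.

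The study asked whether promoters of circadian genes have most contacts near their acrophase, the time of highest transcript level. Acrophases came from the RNA-seq of the study on liver, not from the contact lists. Of all baits of its circadian genes, 441 of 1118 (39.4%, 36.6 to 42.3%) had a member, beside 33.6% of baits with a protein-coding gene start. Promoters of circadian genes with a single acrophase numbered 1108, of which 435 had 1138 members. Of these members, 74.6% (72.0 to 77.0%) were listed at the acrophase and 69.0% (66.2 to 71.6%) at the timepoint 12 h away, a difference of 5.62 percentage points. With the list order of the study's summary the difference was 2.64, and with the genes whose intron reads were rhythmic as well it was 10.4. By promoter, 137 had more members at the acrophase than 12 h away, 102 fewer and 196 as many. With acrophase ZT12, 67 had more and 25 fewer, and with ZT18, 27 and 14. At acrophases ZT0 and ZT6 it was the reverse, with 22 more and 26 fewer, and 21 more and 37 fewer. Without the promoters of acrophase ZT12, fewer listings would fall at the acrophase than 12 h away.

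Promoters with an acrophase at ZT12 showed the widest difference. Of their 397 members, 79.1% (74.8 to 82.8%) were listed at ZT12 and 59.2% (54.3 to 63.9%) at ZT0. In between stood ZT6, with 71.3% (66.6 to 75.5%), and ZT18, with 72.3% (67.7 to 76.5%). On baits outside the circadian list the shares in order of timepoint were 66.5%, 67.8%, 71.1% and 74.7%. Among the members of ZT12 promoters in all 4 lists, 38.1% (31.1 to 45.6%, 64 of 168) scored highest at ZT12 and 9.52% at ZT0, against 24.7% and 22.9% on other baits. Acrophase ZT18 also had the most at its own time, 80.2% at ZT18 and 66.8% at ZT6. The other acrophases did not: at ZT0 the shares were 72.7% at ZT0 and 75% at ZT12, and at ZT6 they were 66.8% at ZT6 and 78.2% at ZT18. The ZT18 list also held the most for acrophase ZT0, at 80.1%, as it did for acrophase ZT6 and for other baits. The high share of ZT18 promoters at ZT18 was therefore not particular to them. With the other list order, ZT12 promoters had 72.3% at the acrophase and 59.2% at ZT0, and ZT18 promoters 66.8% at the acrophase and 75.4% at ZT6. In that order ZT6 promoters had 71.1% at the acrophase and 66.8% at ZT18, and ZT0 promoters 72.7% at the acrophase and 80.1% at ZT12.

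The circadian genes that gained most were Bhlhe40, with 6 members listed at the acrophase but not 12 h away, and St3gal5, the synthase of the ganglioside GM3, also with 6. St3gal5 had 3, 4, 9 and 4 members at ZT0, ZT6, ZT12 and ZT18. Pck1, the gene of the key enzyme of gluconeogenesis, had 1, 5, 6 and 4, from a bait of 1239 bp. Its upstream fragment with the E-box scored 5.62, 9.04 and 6.21 from ZT6 on, and the contact over 23.3 kb scored 5.93, 8.74, 10.2 and 9.69. Zcchc24, Lpin2, a phosphatidate phosphatase of lipid synthesis, and Igf2r, a receptor that clears IGF2, gained 4 each and had acrophase ZT12. Celsr1 and Palm, with acrophase ZT18, gained 4 each as well. The genes named here were ranked by this gain, so a high count at the acrophase follows from the choice. Among all circadian promoters, 102 had fewer members at the acrophase than 12 h away. In the other list order, the list at the acrophase would hold 7 members of Bhlhe40 and 4 of St3gal5, beside 4 and 3 at ZT0.

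Some genes shifted together over those of their contacts that were in all 4 lists. Of 375 baits with at least 4 members in all 4 lists, 44 had the highest score of each such member at one timepoint, which was ZT18 for 18, ZT12 for 13, ZT0 for 10 and ZT6 for 3. Alas1, the first enzyme of heme synthesis, had 7 such members, and the median score was 10.3, 9.37, 19.3 and 12.9 at ZT0, ZT6, ZT12 and ZT18. Its fragment printed above was listed at ZT12 and ZT18 alone, at 7.87 and 5.19. Rusc2 had 5 with medians of 6.73, 6.87, 12.5 and 6.93, and Pim3, a kinase gene with acrophase ZT12, had 6 with 5.86, 7.73, 10.96 and 7.93. Clasrp and Ctcfl peaked at ZT12 too. Jund, a subunit of AP-1, Acat2, of sterol metabolism, Plxnb2 and Lgi4 peaked at ZT18, and Cpsf3 with Itgb1bp1 at ZT6 with a median of 23. Genes were ranked here by the ratio of the highest to the next score, a measure chosen after the scores were seen.

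A few strong contacts were missing from 1 or more lists. Ugt1a1, whose enzyme conjugates bilirubin, had a contact at 12.3 kb that scored 27.8 at ZT18 and was not listed elsewhere, although the nearest listed fragments on either side of it scored 18.9 to 20.9 and 11.2 to 13.4 at every timepoint. The stretch printed for Ugt1a1 lies in this fragment. A contact of the bait shared by Hjurp and Trpm8 scored 13.5, 16.7 and 21.03 and was absent at ZT18, and another of the same bait, to a fragment of 178 bp, scored 15 at ZT6 alone. Pabpc4 had 14.6 at ZT0 alone, to a fragment of 173 bp, and AC091333.1 had 14.2 at ZT6 alone. Il6ra, the interleukin 6 receptor gene, scored 5.73 at ZT0, 13.1 at ZT12 and 11.4 at ZT18, and Rusc2 5.16, 13.4 and 6.33 from ZT6 on. The contacts of Ppp1r13l with Cd3eap, Lrrc68 and Mut with Cenpq were each in 3 lists with best scores of 12.7 to 15.5. In a search for second copies in the genome, at 95% identity over at least 50% of the length, none of the 489 fragments searched had one. The search did not take in the U6 bait and its contacts, which had the highest scores of all, nor every other gene named in the text. The settings of the search drop short alignments, so it could not have found a copy of the fragments of 173 and 178 bp. Partial copies of other short fragments could be missed in the same way.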

How the data were processed

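P-CHi-C libraries of 3 pools of 2 livers per timepoint were sequenced as 16 samples. The authors processed reads with HiCUP on mm9, combined the pools of each timepoint before calling contacts with CHiCAGO, and the deposited lists give 1 CHiCAGO score (5 and over) per fragment pair and timepoint. Pairs were joined across the 4 lists. Read depth was not analysed here. HindIII fragments were cut from the mm9 sequence and annotated with GENCODE gene records. Eligible pairs were all bait to never-bait pairs with midpoints under 25 kb that did not adjoin, with other ends of 151 to 37048 bp as in the lists. Shares have Wilson 95% intervals. With 1 list per timepoint there was no test. Exact motif words were searched on both strands of the central 1 kb of fragments. The members and gene lists were chosen with earlier results of these data known. Named genes were those with the strongest, most, changing or acrophase-gained members, every clock gene with a member, and the 3 with most members per list, of which some are not reported here. Other score, distance, fragment, bait and list-order settings were tried. Scripts were tested on simulated data and ran in Python 3.11.15 with pandas 2.3.3, numpy 2.4.6, scipy 1.17.1 and matplotlib 3.10.9, and second copies were sought with minimap2 2.31.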

Additional observations from a re-analysis of the deposited data

How the results depend on the processing

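No paired analysis was possible because contacts were called on merged pools, and no replicate could be left out for the same reason. Of 133 alternative values, 75 stayed within the counting error or, for numbers of members, within 1.5 times the reported number. The other 58 moved further and come first below, ending with a circadian difference of 10.4 percentage points. With a score of at least 7 the lists of ZT0, ZT6, ZT12 and ZT18 held 3823, 3943, 4220 and 4473 members, which were 5.27%, 5.10%, 5.54% and 5.90% of each list, with 41.8% of members at all 4 timepoints, 26.6% at 1 and 16.6% of baits with a member. With a score of at least 10 the numbers were 1399, 1380, 1535 and 1658, the shares of each list 4.37%, 4.04%, 4.56% and 4.93%, with 39.3% at all 4, 27.47% at 1 and 7.02% of baits. Below 20 kb the shares of each list were 5.27%, 5.06%, 5.43% and 5.70%, with 46.5% at all 4, 23.7% at 1 and 30.2% of baits. Below 30 kb they were 7.21%, 7.03%, 7.55% and 7.92%, with 44.0% at all 4 and 34.2% of baits. With the gap between fragments as the distance they were 7.30%, 7.12%, 7.66% and 8.01%, with 43.9% at all 4 and 34.2% of baits. With other ends of at least 1 kb they were 4.86%, 4.66%, 4.87% and 5.24%, with 46.2% at all 4, 23.7% at 1 and 28.9% of baits. With baits taken from the same list, 44.1% were at all 4. With a neighbouring fragment counted as the same contact, 58.8% were at all 4 and 15.6% at 1. On baits under 8 kb, a setting chosen after seeing the data, 40.8% were at all 4, 26.9% at 1 and 24.1% of baits had a member. The share listed inside the gene over that upstream, 1.22 as reported, was 1.14 at a score of at least 7, 1.08 at a score of at least 10 and 1.17 below 20 kb. The circadian difference of 5.62 percentage points moved to 10.4 with genes whose intron reads were rhythmic as well. It stayed within the counting error at 7.28 on baits under 8 kb, 6.20 at a score of at least 7 and 2.64 in the other list order. The ROR element core, at a ratio of members to unlisted fragments of 1.01, was at 0.977 as matches per kb of whole fragments, also within the counting error. The ZT6 list held more members than the ZT0 list as reported, but fewer at a score of at least 10 and with equal numbers of pairs per list, at 8705 against 9104. Apart from settings that change which pairs are counted, the cause was not tested. A pair under the score minimum is not in the lists, so an absent contact may lie just below it.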
